A study of Mus musculus with 12 samples.

Results

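The glutathione, peroxiredoxin and antioxidant genes of mouse fat were described in 12 RNA sequencing libraries. Members were chosen by symbol alone: the glutathione transferases (Gst classes a, k, m, o, p, t and z, and Mgst), the glutathione peroxidases (Gpx), the peroxiredoxins (Prdx), every symbol that begins with Txn, the genes of glutathione synthesis and recycling (Gclc, Gclm, Gss and Gsr), Sod1, Sod2, Sod3, Cat, Nfe2l2, Nqo1 and Hmox1, without symbols marked as pseudogenes. The rule found 69 of the 47729 genes in each table. It used no measured value, but it was chosen with earlier results of these data known. The prefix Txn also took in Txnip and the thioredoxin-like and thioredoxin domain proteins, several of which are not antioxidant enzymes. Prdx2-rs3, which the symbol rule kept, is a processed pseudogene in the GENCODE M21 annotation.

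The libraries came from interscapular brown (BAT), retroperitoneal white (RWAT), inguinal white (IWAT) and epididymal white fat (EWAT), 3 from each depot. All mice were wild type C57BL/6J males that received a high-fat diet, with an age of 6 to 10 weeks given in the design text, and all were labelled as surgically denervated. The depots were therefore compared with each other in denervated fat, and what denervation itself does could not be tested. The labels do not say that the replicates were separate animals, so a p-value here reflects no more than the spread among these libraries, which may be technical.

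Glutathione and thioredoxin are the main thiol reductants of the cell. Peroxidases and peroxiredoxins spend them to reduce hydrogen peroxide and lipid peroxides, reductases regenerate them with NADPH, and glutathione transferases attach glutathione to electrophiles such as the aldehydes that form when lipids are oxidised. Superoxide dismutases and catalase act without thiols, and the transcription factor NRF2 (Nfe2l2) drives many of these genes through antioxidant response elements. In fat these systems are found both in lipid-storing adipocytes and in the macrophages that gather in the tissue in obesity.

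Total counts were 12933516 to 21106554 per library, and the 69 members held 0.592% to 0.801% of them. Levels between libraries are given as CPM, read counts relative to library size after scaling by TMM factors, the trimmed-mean factors of edgeR, and levels between genes as deposited TPM, transcript abundance per length. Between libraries TPM was not compared, since 1 small structural RNA alone took 4.2% to 23.5% of it. The test was the quasi-likelihood F test of edgeR, with Benjamini-Hochberg adjustment over 18942 genes, and a call means an adjusted p below 0.05. Log2 fold changes are given ± SE and means ± SD, with n = 3 libraries per depot.

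Some libraries stood apart in their cell type markers. Ucp1, the uncoupling protein that defines brown adipocytes, stood at 1490 CPM in BAT 1, but at 0.253 CPM in BAT 2 and 1.7 CPM in BAT 3, so 2 of the 3 libraries labelled BAT nearly lacked the defining marker of that tissue. The 16 adipocyte markers summed to 27300 to 44700 CPM in IWAT and 1800 to 14300 CPM in EWAT, with EWAT 1 the lowest, and to 5830 to 29300 CPM in BAT and 5830 to 15500 CPM in RWAT. The 18 macrophage markers summed to 4090 to 6130 CPM in IWAT and 16700 to 21500 CPM in EWAT. Of them 8 were called lower in IWAT and 1, Cd163, higher, with a median log2 fold change of -1.68. Over all genes 5.52% were called lower in IWAT than in EWAT and 5.47% higher. These shares apply to every marker list in this paragraph. Lyz2 and Spp1 held 6420 and 4510 CPM of the 17400 CPM in EWAT 1. The general markers Csf1r (-0.24 ± 0.28, adjusted p = 0.616) and Mrc1 (0.47 ± 0.32, adjusted p = 0.345) were among those not called. The 16 adipocyte markers gave 0 calls between IWAT and EWAT, with 11 at an unadjusted p below 0.05 (against 30.7% of all genes). Their median log2 fold change was 2.24, higher in IWAT. IWAT 1, which had the highest value of many transferases, also had the highest B cell marker sum, 1170 CPM against at most 355 CPM elsewhere. The gene Ighm alone held 1140 of these 1170 CPM, and 346 of the 355 CPM in BAT 3. IWAT 1 had the highest mast cell marker sum as well, 301 CPM against at most 118 CPM elsewhere. Of the 8 mast cell markers 3 were called higher in IWAT than in EWAT. The 11 mesothelial markers summed to 4.06 to 11.4 CPM in IWAT and 59.2 to 168 CPM in EWAT, and 7 were called lower in IWAT. Of the 10 fibroblast and progenitor markers 6 were called higher in IWAT: Pdgfra, Dcn, Dpp4, Pi16, Ly6a and Cd34. The sums of the list overlapped, at 9590 to 15700 CPM in IWAT and 10100 to 18400 CPM in EWAT. Most of each sum came from Col1a1, Col1a2 and Col3a1, which were not called. In EWAT 1 they held 7190, 5890 and 4890 of the 18400 CPM, so the sums say little about the called genes. The 15 epididymis markers summed to at most 1.05 CPM in any library, and muscle markers reached 3090 CPM in RWAT, against at most 28.6 CPM in IWAT and 8.79 CPM in EWAT. The part of any of these cell types in the results below was not tested, and in bulk tissue fewer cells of a type and less RNA per cell cannot be told apart.

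**Figure D1:**
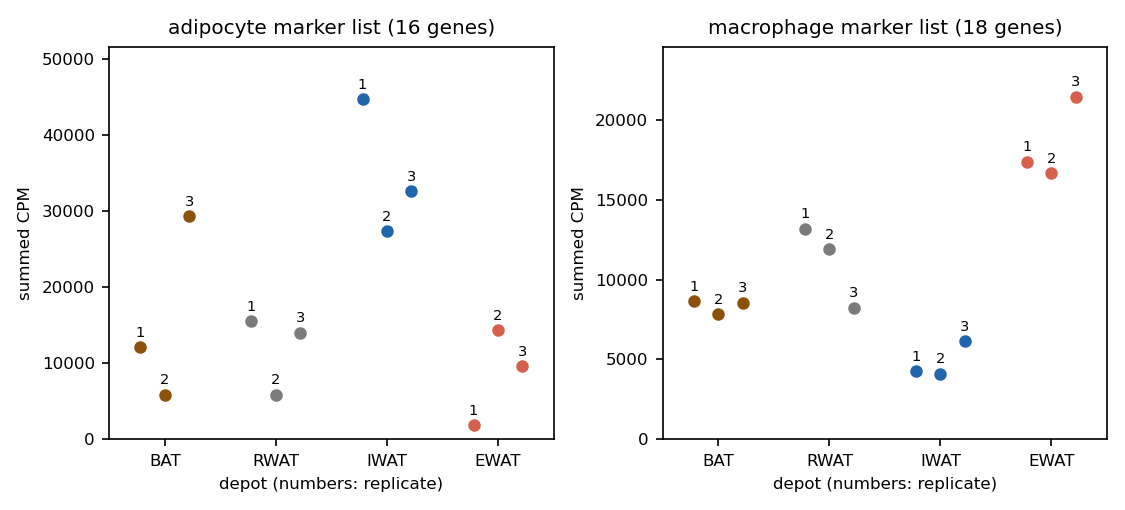
Summed CPM of the adipocyte (left) and macrophage (right) marker lists in each library, on linear axes that start at 0, with the replicate number above each point. The 3 IWAT libraries lie above all others except BAT 3, which is within their range, for adipocyte markers and below all others for macrophage markers.

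Of the 69 members, 58 passed the filter on low counts. The 11 that did not were Gsta1, Gsta2, Gstm3, Gstt4, Gpx2, Gpx5, Gpx6, Prdx6b, Prdx2-rs3, Txndc2 and Txndc8. Gpx5 and Prdx2-rs3 had 0 counts in all 12 libraries, where 3 counts in a library correspond to 0.134 to 0.227 CPM, and the other 9 summed to between 1 count (Gpx6 and Txndc8) and 17 counts (Gsta1) over all libraries. Gpx5, an epididymal peroxidase, was thus not detectable in EWAT at this depth. The most abundant members per length were Gpx1 at 851 TPM, Prdx1 at 707 TPM, Hmox1 at 652 TPM and Mgst1 at 520 TPM as means over the 12 libraries. The mean of Hmox1 covers uneven levels, 53.2 to 2340 CPM over the libraries, with EWAT 1 the highest. The genes also differed in how widely they ranged: the highest library exceeded the lowest 1.5-fold for Txndc11, against 153-fold for Gsta4 and 84.6-fold for Gstz1.

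**Figure D2:**
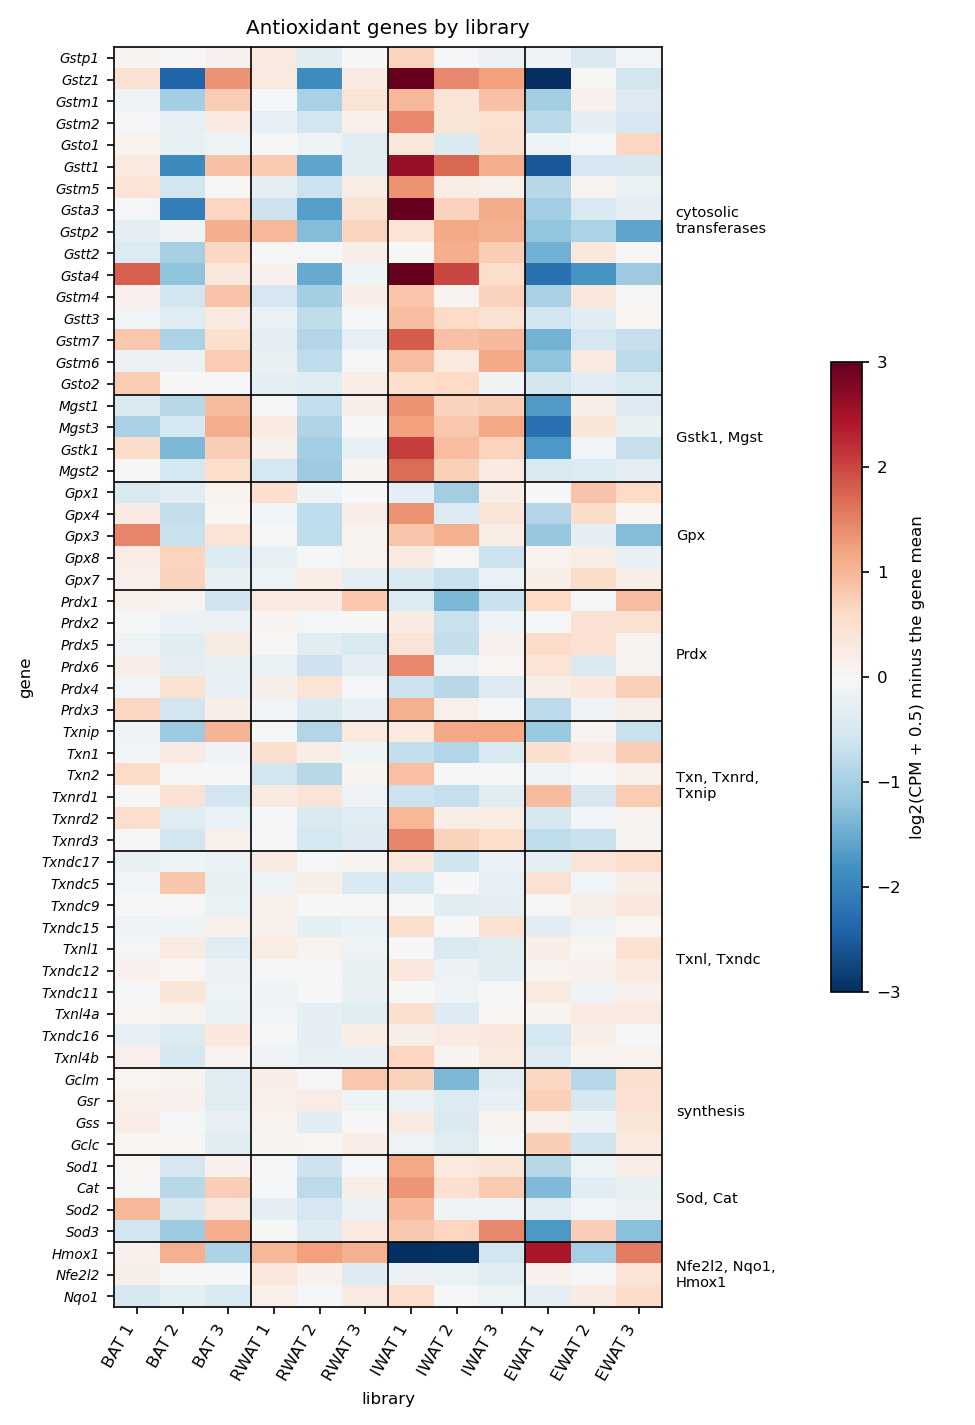
Log2(CPM + 0.5) of the 58 members tested, minus each gene's mean over the 12 libraries, with libraries in columns by depot and genes in rows by role, from the highest mean TPM down within a role. Many transferase rows are darkest red in IWAT 1, with exceptions such as Gsto1, Gsto2 and Gstm4, which are highest outside IWAT, and Hmox1 is lowest in IWAT 1 and IWAT 2.

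Some transferases, peroxiredoxins and thioredoxin genes, and Hmox1, were called between inguinal and epididymal fat. The joint test over the 4 depots called 0 members, and the adjustment was over genes and not over comparisons. Between IWAT and EWAT 11 of 58 members were called, which is 19.0%, against 11.0% of all genes tested. Of these, 7 were higher in IWAT (12.1%, against 5.47% of all genes): the transferases Gsta4, Gstt1, Gstm7, Gstp2, Gstm2 and Gstk1, and Txnrd3. The 4 lower in IWAT (6.90%, against 5.52% of all genes) were Txn1, Prdx1, Prdx4 and Hmox1. The libraries did not overlap, with IWAT above EWAT, for 22 members (37.9%, against 17.2% of all genes), and with IWAT below EWAT for 7 (12.1%, against 15.1%). The median log2 fold change of the members was 0.50, against 0.02 over all genes tested.

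The number of calls depended on the tool and on single libraries. At an unadjusted p below 0.05, 33 members passed (56.9%, against 30.7% of all genes), DESeq2 called 22 (37.9%, against 20.0%) and limma-voom called 9 (15.5%, against 9.96%). The count was 0 without IWAT 1, 0 without IWAT 2, 1 without EWAT 3, 2 without EWAT 1, 7 without RWAT 1 and 18 without BAT 2. The share of all genes called in these refits is not reported here, so the counts do not set the members apart from other genes. None of the 11 genes changed its direction in the 22 alternatives run for each. These genes were picked by their calls, and all but Hmox1 had no overlap between IWAT and EWAT. A reversal was therefore unlikely from the start, and its absence says little about stability.

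**Figure D3:**
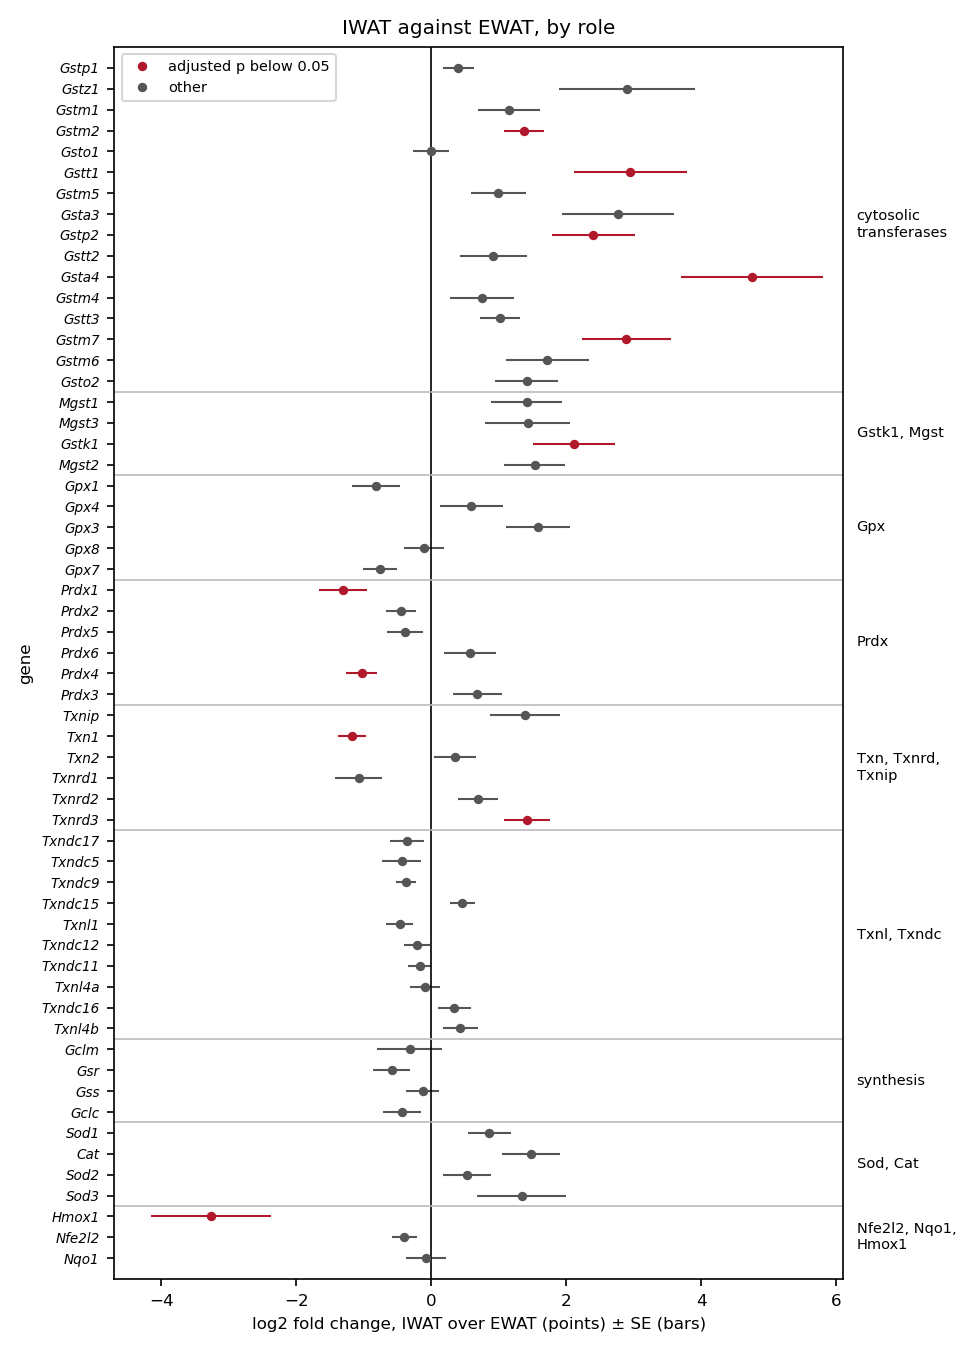
Log2 fold change (points) ± SE (bars) of IWAT over EWAT for the 58 members tested, grouped by role, with calls at an adjusted p below 0.05 in red. Transferases lie to the right of 0 apart from Gsto1, while the called peroxiredoxins, Txn1 and Hmox1 lie to its left.

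Promoter sequences are shown for the called genes whose windows held a searched motif, and for Txn1, the gene with the smallest p. They were taken from RefSeq on GRCm38.p6, from 250 bases before to 50 bases after the gene's start. The motifs were the antioxidant response element core, TGACNNNGC, and the AP-1 site, TGANTCA, each searched on both strands. The core was found in 12 of the 58 members with a promoter in the table (20.7%), against 14.0% of 27025 genes, and the AP-1 site in 5 (8.62%), against 8.97% of genes. Of the 11 called members, 9 had a promoter in the table, while Gsta4 and Hmox1 had none and were not searched. Among the 9 searched, the core occurred in 2, Gstm7 and Prdx1, and the AP-1 site in 2, Prdx1 and Gstp2. Capitals mark the matches.
Gstm7 (the second of 2 listed starts, chr3:107931565-107931864, minus strand): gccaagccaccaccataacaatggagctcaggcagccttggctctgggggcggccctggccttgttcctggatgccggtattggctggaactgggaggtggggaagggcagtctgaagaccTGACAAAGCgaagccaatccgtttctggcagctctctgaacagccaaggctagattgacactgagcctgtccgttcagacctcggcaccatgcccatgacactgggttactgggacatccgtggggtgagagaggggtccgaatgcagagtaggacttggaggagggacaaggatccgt
Gstp2 (chr19:4042172-4042471, minus strand): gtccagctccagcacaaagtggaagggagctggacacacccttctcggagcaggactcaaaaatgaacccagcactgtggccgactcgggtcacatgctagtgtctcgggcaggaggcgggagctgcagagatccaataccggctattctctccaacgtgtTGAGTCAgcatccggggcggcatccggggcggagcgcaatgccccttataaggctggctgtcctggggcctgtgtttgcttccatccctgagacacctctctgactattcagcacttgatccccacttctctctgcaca
Prdx1 (chr4:116685349-116685648, plus strand): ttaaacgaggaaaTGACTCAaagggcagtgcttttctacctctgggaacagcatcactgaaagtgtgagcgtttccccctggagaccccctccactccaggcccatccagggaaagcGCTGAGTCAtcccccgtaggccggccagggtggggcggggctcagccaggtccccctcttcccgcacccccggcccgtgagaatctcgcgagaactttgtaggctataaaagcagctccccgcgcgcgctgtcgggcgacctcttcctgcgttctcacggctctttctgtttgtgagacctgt
Txn1 (chr4:57956362-57956661, minus strand): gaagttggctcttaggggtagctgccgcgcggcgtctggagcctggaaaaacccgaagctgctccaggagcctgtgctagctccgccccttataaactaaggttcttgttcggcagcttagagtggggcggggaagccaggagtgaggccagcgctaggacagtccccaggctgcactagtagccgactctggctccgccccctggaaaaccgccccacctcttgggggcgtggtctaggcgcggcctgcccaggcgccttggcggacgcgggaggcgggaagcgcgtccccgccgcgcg
In Gstm7 the core begins at -129 from the start on the gene's strand, and the window of the other listed start held neither motif. In Prdx1 the core begins at -133 on the opposite strand and overlaps the AP-1 site at -131, with another AP-1 site at -237. The Gstp2 window held 1 AP-1 site, at -89, and in the Txn1 window neither of these letter patterns occurred. A match is a description of the letters and not a bound site.

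Several cytosolic glutathione transferases were higher in IWAT. Of 16 tested, 5 rose in IWAT against EWAT and 0 fell, where 5.47% of all genes were called higher and 5.52% lower. A positive fold change was seen for 15, against 51.5% of all genes. The median was 1.39 on the log2 scale, against 0.02 over all genes. Of the 6 peroxiredoxins and of the 6 thioredoxins, reductases and Txnip, 2 each were called, so the share called does not set the transferases apart. Gsta4, which conjugates the lipid peroxidation product 4-hydroxynonenal, had 29.1, 12.5 and 4.17 CPM in IWAT 1 to 3, against 0.19, 0.456 and 1.02 CPM in EWAT 1 to 3. Every IWAT library was above every EWAT library, and BAT (0.912 to 10.7 CPM) and RWAT (0.636 to 3.04 CPM) were in between by their means of 5.09 and 2.06 CPM. BAT overlapped both IWAT and EWAT, while RWAT overlapped EWAT and lay below IWAT. Its log2 fold change was 4.75 ± 1.05 (adjusted p = 0.0238), on 797 counts in IWAT and 33 counts in EWAT.

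Gstt1, a theta-class enzyme, had 90.3, 48.8 and 31.2 CPM in IWAT and 2.05, 9.92 and 10.2 CPM in EWAT. All 3 IWAT libraries were above the 9 others, and the log2 fold change was 2.95 ± 0.84 (adjusted p = 0.0467). Gstm7, a mu-class enzyme at low level, had 6.01, 2.9 and 3.12 CPM in IWAT and 0.19, 0.798 and 0.634 CPM in EWAT. It was again highest in the 3 IWAT libraries of all 12, with a log2 fold change of 2.89 ± 0.66 (adjusted p = 0.0262) on 30.85 counts in EWAT.

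Gstm2, a more abundant mu-class enzyme, had 108, 50.8 and 54.4 CPM in IWAT and 22.3, 32.7 and 27.5 CPM in EWAT. Its IWAT libraries also lay above all 9 others, and the log2 fold change was 1.37 ± 0.3 (adjusted p = 0.0243). Gstp2, a pi-class enzyme, had 6.6, 11.3 and 10.6 CPM in IWAT and 1.85, 2.28 and 1.27 CPM in EWAT. EWAT was lower than IWAT in every library, at a log2 fold change of 2.4 ± 0.61 (adjusted p = 0.0349), and RWAT ranged across both, at 1.68 to 10.2 CPM. The Gstp2 value is uncertain, because 50.1% of the 75-base windows of its transcripts also occur in another gene, 44.9% in Gstp1, and the deposited posterior SD was 14.8% of its count, against a median of 0.135% over all genes tested.

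**Figure D4:**
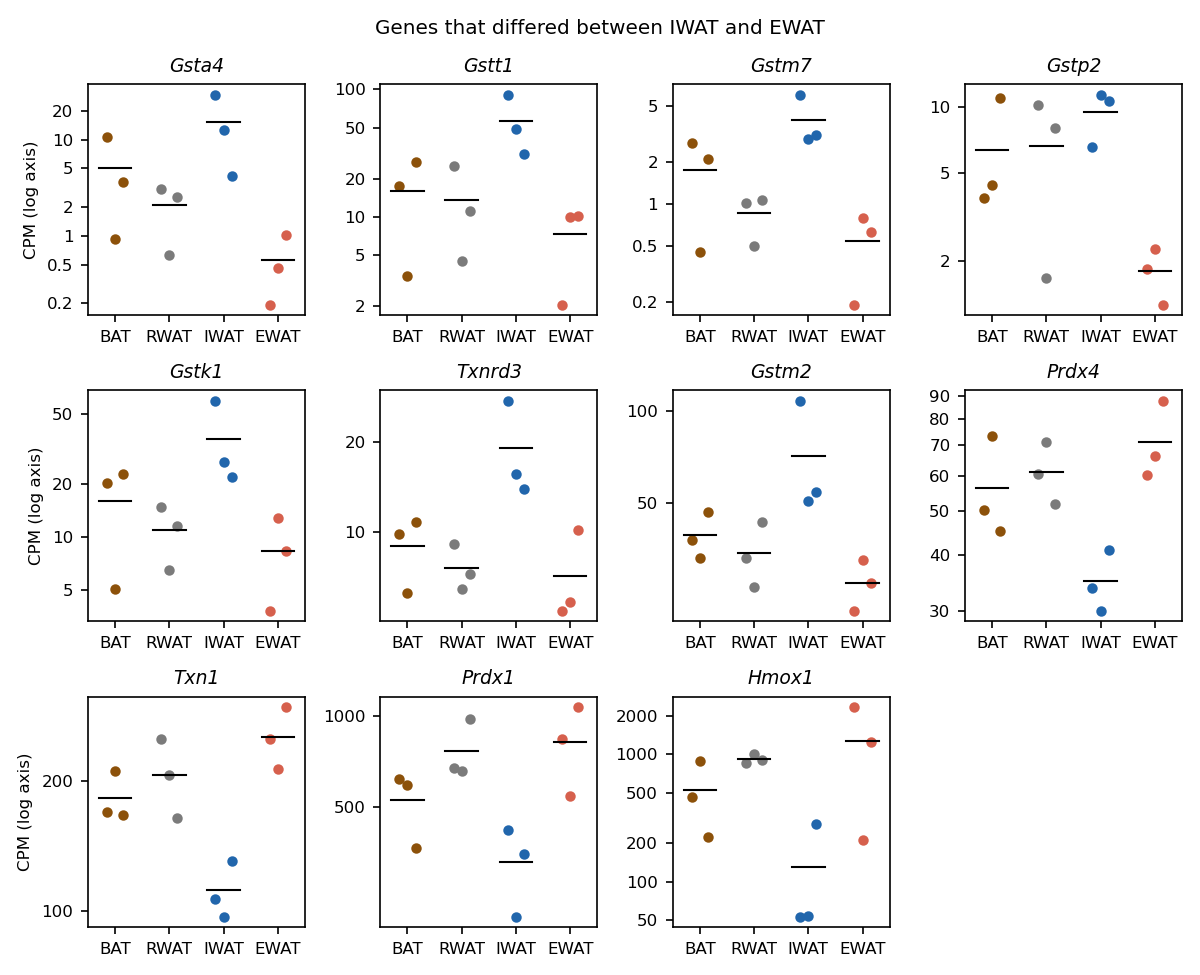
CPM of the 11 called members in each library (points, log axis; the scale differs between panels) with the depot mean as a bar. Genes are ordered by their IWAT to EWAT fold change, and IWAT points lie above EWAT points in the 7 panels up to Gstm2 and below them in those of Prdx4, Txn1 and Prdx1, while the Hmox1 points of these depots overlap.

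The other cytosolic transferases were not called, although many had the same direction. Gsta3, an alpha-class enzyme, had 98.1, 16.8 and 22.7 CPM in IWAT and 4.71, 7.24 and 8.2 CPM in EWAT, with a log2 fold change of 2.77 ± 0.83 (adjusted p = 0.0537). Gstt3 was close to the threshold as well, at 7.58 to 10.7 CPM in IWAT and 3.42 to 5.61 CPM in EWAT (adjusted p = 0.053). For both genes the 3 IWAT libraries lay above the 9 others. Gstz1, the zeta-class enzyme that also acts as maleylacetoacetate isomerase in tyrosine breakdown, ranged from 254 to 897 CPM in IWAT and from 10.6 to 110 CPM in EWAT, a log2 fold change of 2.9 ± 1.01 (adjusted p = 0.0818). It was among the more abundant of these genes, at a mean of 127 TPM. Gstp1, at 150 TPM, had 79.1 to 142 CPM in IWAT and 66.5 to 85.3 CPM in EWAT (log2 fold change 0.4 ± 0.23, adjusted p = 0.276). Gstm1, at 115 TPM, had 113 to 172 CPM in IWAT and 41.4 to 94.2 CPM in EWAT (1.15 ± 0.46, adjusted p = 0.12).

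Of Gstk1 and the 3 microsomal transferases 1 rose and 0 fell, with a median log2 fold change of 1.48. Over all genes 5.47% were called higher, and with 4 genes this count does not set the group apart. Gstk1, the kappa-class enzyme of mitochondria and peroxisomes, had 59.4, 26.6 and 22 CPM in IWAT and 3.81, 12.9 and 8.3 CPM in EWAT. The groups did not overlap, and the log2 fold change was 2.11 ± 0.61 (adjusted p = 0.0488), the call nearest to the threshold. Mgst1, the membrane-bound enzyme of the endoplasmic reticulum and outer mitochondrial membrane, had 431 to 678 CPM in IWAT and 81.7 to 300 CPM in EWAT (1.41 ± 0.52, adjusted p = 0.0949). Mgst2 and Mgst3 had adjusted p of 0.0515 and 0.152. Together the 20 cytosolic transferases made up 14% ± 2.96 of the members' TPM in IWAT and 5.55% ± 1.23 in EWAT, and Gstk1 with Mgst1 to Mgst3 made up 15.2% ± 1.28 in IWAT and 5.77% ± 3.61 in EWAT. These are shares within a library, with no test, and each also depends on the levels of the other groups. Nfe2l2, Nqo1 and Hmox1 together held 28.4%, 3.28% and 13.4% of the members' TPM in EWAT 1 to 3. In IWAT 1 to 3 they held 0.949%, 1.63% and 3.91%. The adipocyte marker sum was higher in IWAT in the same libraries. Of its 16 genes 0 were called (against 11.0% of all genes), 11 had an unadjusted p below 0.05 (against 30.7%), and the median log2 fold change was 2.24. The part of adipocytes in these differences was not tested.

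Among peroxiredoxins, which reduce peroxides through a reactive cysteine, 2 of 6 tested members fell in IWAT against EWAT and 0 rose, with a median log2 fold change of -0.42. Over all genes 5.52% were called lower, and with 6 genes this count does not set the group apart. Prdx1, the main cytosolic peroxiredoxin, had 422, 218 and 351 CPM in IWAT and 841, 544 and 1070 CPM in EWAT. The groups did not overlap, with a log2 fold change of -1.31 ± 0.35 (adjusted p = 0.0381). Prdx4, which works in the endoplasmic reticulum and is secreted, had 33.8, 30 and 41 CPM in IWAT and 60.3, 66.2 and 87.9 CPM in EWAT. The 3 IWAT libraries lay below all 9 others, and the log2 fold change was -1.03 ± 0.23 (adjusted p = 0.0249). Prdx2 (-0.45 ± 0.22, adjusted p = 0.196) and Prdx5 (-0.39 ± 0.27, adjusted p = 0.371) had negative fold changes, and mitochondrial Prdx3 (0.68 ± 0.36, adjusted p = 0.224) and Prdx6 (0.57 ± 0.38, adjusted p = 0.348) positive ones. Prdx1 made up 32.9% ± 3.34 of the TPM of the group in IWAT and 51.4% ± 8.43 in EWAT.

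Of the 6 thioredoxins, thioredoxin reductases and Txnip, 1 fell and 1 rose in IWAT against EWAT, with a median log2 fold change of 0.52. Over all genes 5.52% were called lower and 5.47% higher, and with 6 genes these counts do not set the group apart. Txn1, the cytosolic thioredoxin, had 107, 97 and 131 CPM in IWAT and 250, 213 and 297 CPM in EWAT. The IWAT libraries lay below all 9 others, and the log2 fold change was -1.18 ± 0.21, with the smallest p of any member (adjusted p = 0.0143). Txnrd1, its reductase, had 85 to 112 CPM in IWAT and 100 to 266 CPM in EWAT (-1.08 ± 0.35, adjusted p = 0.0673). Txnrd3, a thioredoxin-glutathione reductase best known from testis, had 27.5, 15.7 and 14 CPM in IWAT and 5.47, 5.87 and 10.2 CPM in EWAT. It rose with a log2 fold change of 1.41 ± 0.34 (adjusted p = 0.0296), the IWAT libraries lying above all 9 others.

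Txnip, which binds and inhibits thioredoxin and restrains glucose uptake, had 656, 1160 and 1180 CPM in IWAT and 245, 564 and 332 CPM in EWAT. IWAT was higher in every library, but the difference was not called (1.39 ± 0.52, adjusted p = 0.1). Within the 6 genes of this group, Txn1 held 15.6% ± 1.98 of the TPM in IWAT and 46% ± 7.7 in EWAT, and Txnip held 67.4% ± 9.2 in IWAT and 31.8% ± 13.6 in EWAT. The mitochondrial pair Txn2 (0.35 ± 0.31, adjusted p = 0.484) and Txnrd2 (0.69 ± 0.3, adjusted p = 0.151) was not called. Of the 10 thioredoxin-like and thioredoxin domain proteins tested, 0 were called by edgeR, 3 passed an unadjusted p below 0.05, a share near the 30.7% of all genes, and 0 were called by DESeq2, with a median log2 fold change of -0.19. The most abundant were Txndc17, a cytosolic thioredoxin-related protein (-0.36 ± 0.25), the endoplasmic reticulum disulfide isomerase Txndc5 (-0.44 ± 0.29), Txndc9, a chaperonin partner (-0.38 ± 0.15), and Txndc15 (0.46 ± 0.19).

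**Figure D5:**
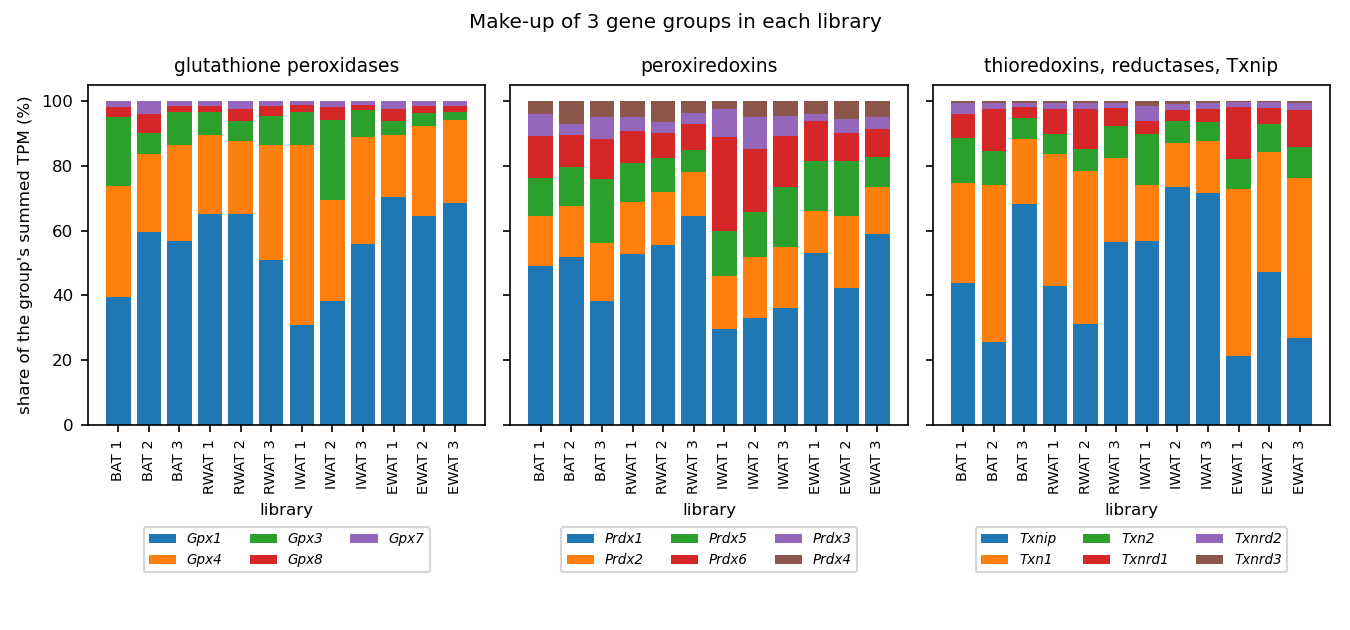
Share of each gene in the summed TPM of its group in each library, as stacked bars for the glutathione peroxidases, the peroxiredoxins and the thioredoxins with their reductases and Txnip. In the IWAT libraries Txn1 takes 13.4% to 17.2% of the third group, against 37.1% to 51.3% in the EWAT libraries.

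No glutathione peroxidase was called between IWAT and EWAT, of 5 tested, by edgeR, against 11.0% of all genes. At an unadjusted p below 0.05, 3 passed (against 30.7% of all genes), and DESeq2 called Gpx3 and Gpx7 (against 20.0%). The median log2 fold change of the 5 was -0.11. Gpx1, the cytosolic enzyme, had 295 to 695 CPM in IWAT and 610 to 1100 CPM in EWAT (-0.82 ± 0.35, adjusted p = 0.135). Gpx4, which reduces lipid peroxides within membranes, had 229 to 761 CPM in IWAT and 163 to 439 CPM in EWAT (0.59 ± 0.47, adjusted p = 0.432). Gpx3, the secreted plasma enzyme, had 234, 276 and 155 CPM in IWAT and 59.8, 110 and 53.2 CPM in EWAT. Its groups did not overlap, but the difference missed the threshold (1.58 ± 0.48, adjusted p = 0.0571). The endoplasmic reticulum enzymes Gpx7 (-0.76 ± 0.25, adjusted p = 0.0667) and Gpx8 (-0.11 ± 0.29, adjusted p = 0.839) had negative fold changes. Gpx1 made up 41.6% ± 12.9 of the TPM of the group in IWAT and 67.8% ± 3.01 in EWAT.

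Glutathione synthesis and recycling gave no call either, of 4 genes tested by edgeR. Gsr alone had an unadjusted p below 0.05 (against 30.7% of all genes), and DESeq2 made 0 calls (against 20.0%). The catalytic and modifier subunits of the rate-limiting ligase, Gclc (-0.44 ± 0.28, adjusted p = 0.316) and Gclm (-0.32 ± 0.48, adjusted p = 0.706), the synthetase Gss (-0.13 ± 0.24, adjusted p = 0.768) and glutathione reductase Gsr (-0.59 ± 0.27, adjusted p = 0.161) all had negative fold changes, with overlapping libraries and a median of -0.38. The superoxide dismutases and catalase, 4 genes, had positive fold changes, a median of 1.1 on the log2 scale and 0 calls by edgeR. At an unadjusted p below 0.05, 2 passed (against 30.7% of all genes), and DESeq2 called 1, Cat (against 20.0%). Cat, the peroxisomal catalase, had 832, 467 and 566 CPM in IWAT and 132, 260 and 283 CPM in EWAT. The groups did not overlap, and the difference lay just outside the threshold (1.47 ± 0.43, adjusted p = 0.0507). Cytosolic Sod1 had 194 to 355 CPM in IWAT, above all 9 other libraries, and 87.9 to 183 CPM in EWAT (0.86 ± 0.32, adjusted p = 0.0985). Mitochondrial Sod2 (0.53 ± 0.36, adjusted p = 0.362) and extracellular Sod3 (1.34 ± 0.66, adjusted p = 0.191) overlapped between the depots.

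Hmox1, the heme oxygenase that is induced by heme and oxidants and is abundant in macrophages that take up red cells, had 53.2, 53.8 and 286 CPM in IWAT and 2340, 212 and 1240 CPM in EWAT. IWAT 3 lay above EWAT 2, so the groups overlapped, and IWAT was lower by the fit, with a log2 fold change of -3.27 ± 0.89 (adjusted p = 0.0413). Over the alternatives this value ranged from -4.58, without IWAT 3, to -2.48, without EWAT 1, and the call was lost in 12 of 22. BAT had 465, 889 and 225 CPM and RWAT had 853, 998 and 900 CPM. Nfe2l2 itself, the NRF2 factor, had 89.6, 88.6 and 81.2 CPM in IWAT and 112, 97.9 and 132 CPM in EWAT (-0.4 ± 0.19, adjusted p = 0.192). Nqo1, the NRF2-driven quinone reductase, was low throughout, at 3.53 to 5.94 CPM in IWAT and 3.23 to 6.05 CPM in EWAT (-0.08 ± 0.3, adjusted p = 0.886). The macrophage marker sum was lower in every IWAT library than in every EWAT library, as were Txn1, Prdx1 and Prdx4. Within that list 8 genes were called lower (against 5.52% of all genes) and Cd163 higher, while Csf1r and Mrc1 were among those not called. The part of macrophages in these differences was not tested.

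Genes around the members were followed in 5 pathway lists, again between IWAT and EWAT. Among 17 tested sources of hydrogen peroxide, 6 fell in IWAT and 2 rose, where 5.52% of all genes were called lower and 5.47% higher. The median log2 fold change was 0.14, against 0.02 over all genes tested. At an unadjusted p below 0.05, 11 of the 17 passed, against 30.7% of all genes. Of the phagocyte NADPH oxidase, the catalytic subunit Cybb had 85.2, 106 and 106 CPM in IWAT and 429, 218 and 318 CPM in EWAT (-1.7 ± 0.38, adjusted p = 0.0257). Its partner Cyba (-1.88 ± 0.36, adjusted p = 0.0159) and the cytosolic subunits Ncf1 (-1.56 ± 0.31, adjusted p = 0.0182) and Ncf4 (-1.7 ± 0.32, adjusted p = 0.0156) fell as well. These genes encode parts of the oxidase of phagocytes, and the macrophage marker sum was lower in the same IWAT libraries, with its part not tested. Ero1l, the endoplasmic reticulum thiol oxidase, also fell (-1.34 ± 0.39, adjusted p = 0.0495). The dual oxidase Duox1 had 8.69, 21.4 and 5 CPM in IWAT and 0.381, 1.43 and 0.0976 CPM in EWAT, without overlap, and rose (4.24 ± 0.8, adjusted p = 0.0157).

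Among 29 other tested genes of glutathione metabolism, 2 rose and 4 fell, with a median of 0.24 on the log2 scale. The same shares of all genes (5.47% higher and 5.52% lower) apply. At an unadjusted p below 0.05, 14 of the 29 passed, against 30.7% of all genes. The 5-oxoprolinase Oplah (2.28 ± 0.63, adjusted p = 0.0434) and the dipeptidase Dpep1 (2.93 ± 0.64, adjusted p = 0.0235) rose. Dpep2, a related dipeptidase (-1.77 ± 0.36, adjusted p = 0.0189), glutaredoxin Glrx (-1.6 ± 0.27, adjusted p = 0.0126), the S-formylglutathione hydrolase Esd (-1.59 ± 0.3, adjusted p = 0.0157) and the conjugate exporter Abcc3 (-1.6 ± 0.39, adjusted p = 0.0312) fell. Glrx had 16.5, 14.1 and 20 CPM in IWAT and 50.2, 33.8 and 69.4 CPM in EWAT, without overlap.

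Of 34 tested NRF2 pathway genes outside the members, 2 rose and 2 fell, with a median of -0.14. These 4 calls are close to the 11.0% of all genes called, while 17 of the 34 had an unadjusted p below 0.05, against 30.7% of all genes. The carboxylesterase Ces2g (1.91 ± 0.28, adjusted p = 0.00947) and Me1, the NADPH-forming malic enzyme (2.5 ± 0.71, adjusted p = 0.0455), rose, and Esd and sulfiredoxin Srxn1, which repairs oxidised peroxiredoxins (-1.23 ± 0.35, adjusted p = 0.0456), fell. Me1 had 1060, 177 and 167 CPM in IWAT and 37.9, 92.6 and 118 CPM in EWAT, so IWAT 1 stood far above the rest. Of 17 tested genes of NADPH supply and methionine sulfoxide repair (median 0.31), Me1 rose and the mitochondrial folate enzyme Mthfd2 fell (-1.75 ± 0.5, adjusted p = 0.0467). The folate enzyme Aldh1l1 (2.58 ± 0.77, adjusted p = 0.0529) and the mitochondrial isocitrate dehydrogenase Idh2 (0.71 ± 0.28, adjusted p = 0.107) had positive fold changes and were not called. Of 17 tested genes of metal binding and selenium (median -0.13), ceruloplasmin Cp rose (2.07 ± 0.57, adjusted p = 0.0426) and selenocysteine lyase Scly fell (-0.76 ± 0.21, adjusted p = 0.0425). Mt3 (-1.15 ± 1.07, adjusted p = 0.51) and Selenom (-0.88 ± 0.27, adjusted p = 0.0537) were not called. In each of these last 2 lists the 2 calls among 17 genes are close to the 11.0% of all genes called. At an unadjusted p below 0.05, 4 genes passed in each, against 30.7% of all genes.

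In the other comparisons edgeR called none of the 58 members. For any difference among the 4 depots, 0 members were called, against 1.14% of all genes; 20 had an unadjusted p below 0.05 (34.5%, against 20.8%), DESeq2 called 17 (29.3%, against 12.8%) and limma-voom 0 (against 0.185%). Txn1 had the smallest p in that test (adjusted p = 0.0663), followed by Gsta4 (adjusted p = 0.0801) and Txnrd3 (adjusted p = 0.0831). Without BAT 2, 3 members passed, with the share of all genes in that refit not reported here. In the NRF2 list, Ces2g was called (adjusted p = 0.0422).

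The brown depot was set against the mean of the white depots and against each of them, and the 2 BAT libraries with little Ucp1 enter every one of these values. Against the white mean, 0 members were called (against 0.0528% of all genes), 1 had an unadjusted p below 0.05 (against 4.92%), and DESeq2 (against 0.952%) and limma-voom (against 0.0211%) called 0. That gene was Nqo1, with 2.66, 3.19 and 2.74 CPM in BAT, below all 9 white libraries at 3.23 to 6.05 CPM, a log2 fold change of -0.65 ± 0.26 (adjusted p = 0.818). Gpx3 (0.73 ± 0.37, adjusted p = 0.999) and Gsto2, an omega-class transferase (0.63 ± 0.36, adjusted p = 0.999), came next.

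Between BAT and EWAT 0 members were called (against 0.143% of all genes), 7 had an unadjusted p below 0.05 (12.1%, against 9.95%), DESeq2 called 1, Gsta4 (against 2.52%), and limma-voom 0 (against 0.0845%). Gsta4 had 10.7, 0.912 and 3.61 CPM in BAT, against 0.19, 0.456 and 1.02 CPM in EWAT, so the groups overlapped (3.17 ± 1.01, adjusted p = 0.267). Gpx3 (1.48 ± 0.48, adjusted p = 0.279) and Gstp2 (1.83 ± 0.61, adjusted p = 0.288) came next. Between BAT and IWAT 0 were called (against 0.0264%), 11 had an unadjusted p below 0.05 (19.0%, against 13.2%), and DESeq2 (against 1.80%) and limma-voom (against 0%) called 0. Txn1 had 170, 211 and 167 CPM in BAT, above IWAT in every library (0.71 ± 0.21, adjusted p = 0.288), followed by Txnrd3 (-1.08 ± 0.34, adjusted p = 0.297) and Prdx4 (0.69 ± 0.23, adjusted p = 0.314). Between BAT and RWAT 0 were called (against 0.0211%), 0 had an unadjusted p below 0.05 (against 4.72%), and DESeq2 (against 0.238%) and limma-voom (against 0%) called 0. The smallest p there belonged to Nqo1 (-0.62 ± 0.3), Sod2 (0.72 ± 0.37) and Txn2 (0.59 ± 0.31), each with an adjusted p of 0.999.

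Between RWAT and EWAT 0 members were called (against 0.00528% of all genes), 2 had an unadjusted p below 0.05 (3.45%, against 4.81%), and DESeq2 (against 0.688%) and limma-voom (against 0%) called 0. They were Gstp2 (1.88 ± 0.61, adjusted p = 0.681) and Prdx5 (-0.64 ± 0.28, adjusted p = 0.965), and Txnl4a, a spliceosome protein, came next (-0.44 ± 0.22, adjusted p = 0.997). Between RWAT and IWAT 0 were called (against 0%), 23 had an unadjusted p below 0.05 (39.7%, against 20.6%), DESeq2 called 11 of 57 (19.3%, against 7.04%) and limma-voom 0 (against 0%). Txn1 had 250, 207 and 164 CPM in RWAT and 107, 97 and 131 CPM in IWAT, without overlap (0.89 ± 0.21, adjusted p = 0.111). Txnrd3 (-1.32 ± 0.34, adjusted p = 0.12) and Prdx1 (1.22 ± 0.35, adjusted p = 0.134) came next, Prdx1 with 675, 658 and 975 CPM in RWAT. The comparisons of BAT and RWAT with IWAT and with EWAT share libraries with that of IWAT with EWAT and are not independent of it.

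Depots whose 3 libraries lay outside the range of the 9 others were counted for all members. IWAT was above all others for 7 members (12.1%, against 4.52% of all genes), Gsta3, Gstm2, Gstm7, Gstt1, Gstt3, Sod1 and Txnrd3, and below for 2, Prdx4 and Txn1 (3.45%, against 3.60%). BAT was below for 1, Nqo1 (1.72%, against 0.195%), and above for 0 (against 0.248%). EWAT was above for 0 (against 1.15%) and below for 0 (against 1.27%), and RWAT was above for 0 (against 0.164%) and below for 0 (against 0.259%).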

How the data were processed

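Ribosome-depleted total RNA of 12 adipose libraries was read from 1 end over 75 bp. The submitters' processing notes name Trimmomatic 0.36, RSEM 1.3.0, DESeq2 1.10.1 and GRCm38.p4. The aligner and the annotation are not given in the sources used here. Deposited tables hold, per the file headers, RSEM expected counts and posterior mean counts (estimated counts, not normalized between libraries), the posterior SD of the count, and TPM.

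Expected counts were rounded, filtered with filterByExpr (minimum count 10, which left 18942 genes), scaled by TMM and tested with edgeR 4.0.16 (R 4.3.3) in 1 model with a coefficient per depot, two-sided, adjusted over all genes by Benjamini-Hochberg at 0.05. The biological coefficient of variation was 0.385. The code was tested on simulated data. Alternatives were RLE size factors, other filters, DESeq2 1.42.0, limma-voom (limma 3.58.1), only the groups compared, a replicate block, leaving out libraries, and, chosen after seeing the data, the earlier quasi-likelihood estimate of edgeR. Deviations from depot means correlated above 0.1 in all same-numbered pairs only for BAT and RWAT (0.182 to 0.429), where the block changed no call.

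Members and gene lists were chosen with earlier results of these data known. Of 312 list memberships 310 matched a symbol. Named genes are every called member, up to 4 per role with the highest mean TPM, the 3 smallest p per comparison, members below the filter, list genes called or among the 4 smallest p, and members with a depot outside all other libraries, with further members named to complete a role. Some list genes that the rule would name are counted but not reported here. Symbols and positions are from GENCODE M21. No molecular identifiers were described, so the floor of 3 counts covers counting error only.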

Additional observations from a re-analysis of the deposited data

How the results depend on the processing

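Between IWAT and EWAT, 11 members were called. The count was 22 with DESeq2, 6 with the replicate number as a block, 4 without EWAT 1 and BAT 2 together and 6 without RWAT 1 and RWAT 3 together. It was between 0 and 18 when 1 library was left out. The 5 calls lost with the block were Gstk1, Gstp2, Gstt1, Hmox1 and Prdx1. Deviations from depot means correlated at -0.346, 0.12 and 0.00173 between same-numbered libraries of these depots. With 3 libraries per depot this cannot settle whether such libraries came from 1 animal. For any depot difference the count was 17 with DESeq2 and between 0 and 3 when 1 library was left out, for BAT against EWAT it was 1 with DESeq2, and for RWAT against IWAT 11 with DESeq2. The other 4 counts stayed at 0 in the alternatives run. The block changed no other of these 8 counts. Where a call was lost, the cause was not tested. The shares of all genes called in the refits with a block or without some libraries are not reported here. With 3 libraries per depot, leaving 1 out leaves 2. The call of Gstk1 was the least stable, lost in 15 of 22 alternatives, while the log2 fold change of Gsta4 ranged between 3.89 and 5.56, that of Gstk1 between 1.54 and 2.57, that of Gstm2 between 0.94 and 1.57 and that of Hmox1 between -4.58 and -2.48. Alternatives were run for the members and not for the pathway lists. Depth limits the 11 members below the filter and the EWAT values of Gsta4 and Gstm7.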
